A study of Mus musculus with 7 samples.

Results

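The genes of the proteasome and its partners were taken as all mouse symbols that begin with Psm, go on with a letter from a to g and end in digits with at most 1 further letter, without pseudogenes. The expression table held 49 such genes among its 28233, and 47 of them had a mean of at least 1 TPM (a transcript's share of all transcripts, scaled for its length) over the 7 tumours and were tested among 14954 genes. The proteasome degrades proteins tagged with ubiquitin: a barrel-shaped core holds the cutting sites, and a regulatory particle of a base and a lid binds, unfolds and feeds in the substrate. Interferon gamma raises Psmb8, Psmb9 and Psmb10, which take the places of the constitutive catalytic subunits Psmb5, Psmb6 and Psmb7 in newly built cores and so form the immunoproteasome. It also raises Psme1 and Psme2, the subunits of the cap PA28, and the immunoproteasome produces many of the peptides shown to CD8 T cells on MHC class I.

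The RNA came from whole subcutaneous tumours of B16mhgp100, a B16 mouse melanoma line, in C57BL/6 mice. There were 4 tumours with Cr1l over-expression (Cr1l 1 to Cr1l 4) and 3 with vector (Vec 5, Vec 6 and Vec 7). Treatment was the same in both groups: anti-PD1 antibody, 200 µg a dose and 4 doses in all at 2 a week, begun on day 10 after inoculation, with harvest 1 day after the final dose. The comparison was therefore between tumour lines under the antibody, with no tumour without it. The labels state neither the promoter that drives Cr1l nor whether the lines are clones. Vec 6 and Vec 7 have an extra, unexplained number in their sample titles.

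Cr1l, a regulator of complement on mouse cells, was present at 76.4, 78.6, 77.9 and 83.6 TPM in Cr1l 1 to Cr1l 4, against 52.4, 46.3 and 54.9 TPM in Vec 5 to Vec 7, and the groups did not overlap (log2 fold change 0.62, SE 0.11, limma adjusted p = 0.119, and 0.00636 in the authors' deposited table). TPM summed to between 993520 and 996031 per tumour, 13634 to 15352 genes reached 1 TPM, and read depth is unknown because TPM does not keep it. The 7 melanocyte marker genes were above 0 in every tumour, with sums of 19764, 18367, 8872 and 10162 TPM in Cr1l 1 to Cr1l 4, against 18523, 12899 and 20010 TPM in Vec 5 to Vec 7. Cr1l 3 and Cr1l 4 stood apart by leukocyte RNA: Ptprc, Coro1a, Laptm5, Cd52 and Cd53 summed to 135, 186, 1491 and 946 TPM in Cr1l 1 to Cr1l 4, against 401, 260 and 126 TPM in Vec 5 to Vec 7. Vec 6 and Vec 7 stood apart by globin RNA, which took 0.0107% to 0.0390% of TPM in Cr1l tumours, and 0.0419%, 4.14% and 0.973% in Vec 5, Vec 6 and Vec 7. Vec 6 also had the highest sum of 4 keratinocyte genes, 840 TPM, against 0.410 to 47.3 TPM in the other tumours. Its sum of 4 skeletal muscle genes was 1269 TPM, against 2.93 to 263 TPM in the other tumours. In bulk tissue fewer cells of a type and less RNA per cell cannot be told apart.

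The 250 bases before the start that the RefSeq promoter table uses are shown for the 3 inducible catalytic subunits and for Psmb5 and Psmb6, since the values below set these genes against each other. They come from RefSeq on the GRCm38.p6 build and are written 5′ to 3′ on the strand of the gene: Psmb8 at chr17:34197945-34198194 on the plus strand, Psmb9 at chr17:34187331-34187580 on the minus strand, Psmb10 at chr8:105938393-105938642 on the minus strand, Psmb5 at chr14:54617996-54618245 on the minus strand and Psmb6 at chr11:70525107-70525356 on the plus strand. Capitals mark a match to 1 of 3 motifs that were searched on both strands.
Psmb8: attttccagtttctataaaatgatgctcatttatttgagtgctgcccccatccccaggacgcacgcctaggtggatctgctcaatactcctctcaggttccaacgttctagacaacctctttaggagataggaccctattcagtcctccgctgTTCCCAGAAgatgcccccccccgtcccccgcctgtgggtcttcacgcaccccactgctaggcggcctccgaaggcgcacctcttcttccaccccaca
Psmb9: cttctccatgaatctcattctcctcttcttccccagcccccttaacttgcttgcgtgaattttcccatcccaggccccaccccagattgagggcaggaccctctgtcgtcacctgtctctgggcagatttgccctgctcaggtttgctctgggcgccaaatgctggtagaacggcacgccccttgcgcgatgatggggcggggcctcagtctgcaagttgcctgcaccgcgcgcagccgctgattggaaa
Psmb10: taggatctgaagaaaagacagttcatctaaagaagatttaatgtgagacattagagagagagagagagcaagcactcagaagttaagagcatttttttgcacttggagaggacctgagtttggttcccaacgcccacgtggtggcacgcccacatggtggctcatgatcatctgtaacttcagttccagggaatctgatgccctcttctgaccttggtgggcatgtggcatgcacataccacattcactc
Psmb5: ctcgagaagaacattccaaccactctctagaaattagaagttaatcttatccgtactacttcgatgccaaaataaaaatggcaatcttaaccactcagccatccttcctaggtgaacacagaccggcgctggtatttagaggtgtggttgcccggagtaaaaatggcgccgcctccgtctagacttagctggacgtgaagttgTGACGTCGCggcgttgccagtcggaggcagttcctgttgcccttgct
Psmb6: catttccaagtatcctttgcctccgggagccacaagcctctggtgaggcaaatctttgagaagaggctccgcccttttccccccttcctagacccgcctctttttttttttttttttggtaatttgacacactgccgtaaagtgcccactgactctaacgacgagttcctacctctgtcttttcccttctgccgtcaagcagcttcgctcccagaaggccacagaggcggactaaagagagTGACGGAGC
In Psmb8 the capitals are a gamma-activated site (TTCNNNGAA, a form found in genes induced by interferon gamma), 97 to 89 bases before the start. In Psmb5 and Psmb6 they are an antioxidant response element core (TGACNNNGC, the form bound by NFE2-like factors), 47 to 39 and 9 to 1 bases before the start. The RefSeq gene span of Psmb6, over all its transcripts, begins earlier, so the last 33 bases of its window, which hold the motif, lie within that span. Psmb9 and Psmb10 held no match to these or to the interferon-stimulated response element core (GAAANNGAA), which says only that these letters are not in these windows. The Psmb9 window shares 225 bases with that of Tap1, a peptide transporter gene that starts next to it on the opposite strand. Of the 49 genes, 41 had a window in the RefSeq table (44 windows, since some genes have more than 1 start), and their motif shares lay near those of all 32851 windows. The gamma-activated site was in 4.55% of the 44 windows and 7.02% of all, in Psmb8 and Psmg1. The antioxidant core was in 11.4% of the 44 windows and 10.2% of all, in Psmb5, Psmb6, Psmc6, Psmd12 and Psmd9. The interferon-stimulated core was in 6.82% of the 44 windows and 7.13% of all, in Psmb3, Psmd4 and Psmd9. These matches are descriptions of sequence and not binding sites.

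Transcripts of the proteasome were at lower levels in the Cr1l tumours across nearly all of its parts. All 49 genes together took 0.852%, 0.820%, 0.868% and 0.713% of TPM in Cr1l 1 to Cr1l 4, against 1.13%, 1.04% and 1.10% in Vec 5 to Vec 7, with no overlap. Of the 47 tested genes, 44 (93.6%) had a negative log2 fold change (difference of group means of log2(TPM + 1), Cr1l minus Vec) in the linear model of limma, against 44.6% of all genes tested. Their median was -0.36, with a range of -1.20 to 0.22, against a median of 0.05 over all genes. Levels were lowest in a Cr1l tumour for 45 of the 47 genes and highest in a Vec tumour for 42, against 51.7% and 39.8% of all genes tested. The genes were measured in the same 7 tumours and are not replicates of each other. These counts and those below describe the set and are not a test of it.

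No single gene of the set passed limma's threshold of an adjusted p of 0.05 over all genes, in either direction, where 0.0134% of all genes did (2 of 14954). At an unadjusted p under 0.05, 24 of the 47 were lower and 0 higher in Cr1l tumours, against a background of 6.07% of all genes lower and 9.49% higher. The 4 Cr1l values all lay below the 3 Vec values for 21 genes and all above for 0, against a background of 6.67% and 9.29% of all genes. In the authors' deposited table, made with DESeq2, 12 of the 47 genes with an adjusted p passed 0.05 as lower in Cr1l tumours and 0 as higher, against a background of 2.27% and 4.74% of 18297 genes. Those 12 in the authors' deposited table were Psmd8, Psmf1, Psmb4, Psmd4, Psmd7, Psmb3, Psmc1, Psmc3, Psmc2, Psmb10, Psmb2 and Psmc4. The calls thus differ between the deposited DESeq2 comparison of counts and limma on TPM, whose fold changes for the same 12 genes ran from -1.20 to -0.42.

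**Figure D1:**
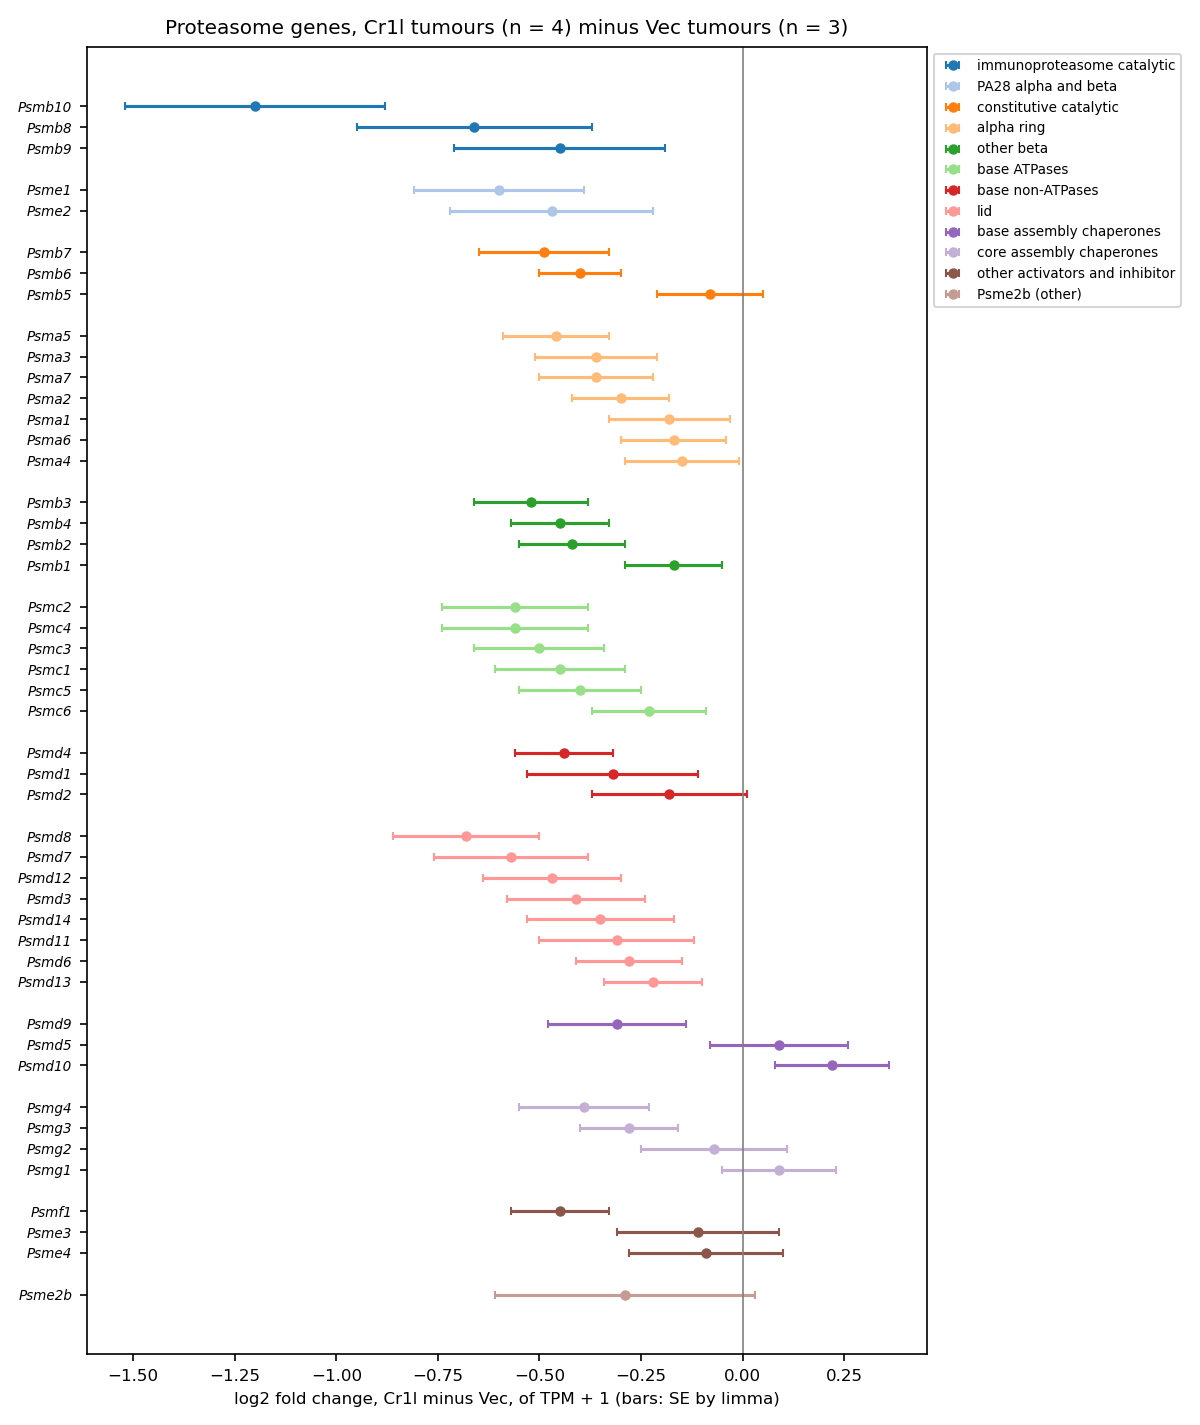
Log2 fold change of each of the 47 tested genes (Cr1l minus Vec, log2 of TPM + 1, horizontal axis), grouped by role in colour, with bars for the standard error by limma. Points lie left of 0 for all but Psmd10, Psmd5 and Psmg1, and Psmb10 lies farthest left at -1.20.

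The count of lower genes moved with single tumours while the fold changes moved less. Without Vec 5 or without Vec 7, 12 genes had an unadjusted p under 0.05 as lower (background 4.26% and 5.07%), while the median was -0.34 and -0.39. In these 2 fits 22 and 26 genes were lower with no overlap, against a background of 9.62% and 10.1% of all genes, up from 6.67% with all 7 tumours. Without Cr1l 4, 16 genes had an unadjusted p under 0.05 as lower (background 4.04%) and the median was -0.29. Without both Vec 6 and Vec 7, 6 genes did (3.72%) and the median was -0.46; Vec 5 was then the only vector tumour, the spread came from the Cr1l tumours alone, and Vec 5 was assumed to vary like them. Without Cr1l 3 and Cr1l 4, 18 genes did (5.18%), and 39 of 47 fold changes were negative. In each of these fits 0 genes passed the adjusted threshold.

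Psmb10 showed the lowest ratio of Cr1l to Vec tumours in the set. Its level was 198, 175, 464 and 225 TPM in Cr1l 1 to Cr1l 4, against 521, 532 and 657 TPM in Vec 5 to Vec 7. Every Cr1l tumour lay below every Vec tumour, and Cr1l 3 was the only one near them. The means were 266 ± 134 TPM in Cr1l tumours and 570 ± 75.4 TPM in Vec tumours (SD, n = 4 and 3), a ratio of 0.43, with a log2 fold change of -1.20 (SE 0.32, limma adjusted p = 0.215, and 0.0572 to 0.736 over the alternatives). The authors' deposited table gave -1.15 with an adjusted p of 0.0430.

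Psmb8, which takes the place of Psmb5, was at 255, 217, 514 and 355 TPM in Cr1l 1 to Cr1l 4, against 541, 423 and 545 TPM in Vec 5 to Vec 7. Cr1l 1 and Cr1l 2 were low, while Cr1l 3 lay within the Vec values, so the groups overlapped. The log2 fold change was -0.66 (SE 0.29, limma adjusted p = 0.325), and the adjusted p in the authors' deposited table was 0.268. Psmb9, which takes the place of Psmb6, was at 154, 132, 280 and 216 TPM in Cr1l 1 to Cr1l 4, against 258, 220 and 292 TPM in Vec 5 to Vec 7. Again Cr1l 1 and Cr1l 2 were lowest and the groups overlapped through Cr1l 3, with a log2 fold change of -0.45 (SE 0.26, limma adjusted p = 0.421).

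Both subunits of the cap PA28, which opens the core without ubiquitin, had the same tumours at the bottom. Psme1 was at 252, 218, 418 and 308 TPM in Cr1l 1 to Cr1l 4, against 426, 447 and 449 TPM in Vec 5 to Vec 7. Its groups did not overlap, by a margin of only Cr1l 3 against Vec 5, and the log2 fold change was -0.60 (SE 0.21, limma adjusted p = 0.270). Psme2 was at 218, 241, 435 and 356 TPM in Cr1l 1 to Cr1l 4, against 378, 488 and 389 TPM in Vec 5 to Vec 7. Cr1l 3 lay among the Vec tumours, and the log2 fold change was -0.47 (SE 0.25, limma adjusted p = 0.392). Psme2b, a near copy of Psme2 that RefSeq lists as protein coding, was at 26.8, 20.8, 59.4 and 33.8 TPM in Cr1l 1 to Cr1l 4, against 42.9, 38.1 and 39.5 TPM in Vec 5 to Vec 7. The sources do not say how reads were split between these copies, so both levels are uncertain.

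The constitutive catalytic subunits did not move alike. Psmb5, the chymotrypsin-like subunit, was at 293, 274, 246 and 218 TPM in Cr1l 1 to Cr1l 4, against 274, 253 and 287 TPM in Vec 5 to Vec 7. The groups overlapped, with a log2 fold change of -0.08 (SE 0.13, limma adjusted p = 0.778), which was 0.06 without Cr1l 3 and Cr1l 4. Psmb6, the caspase-like subunit, was at 336, 312, 318 and 295 TPM in Cr1l 1 to Cr1l 4, against 398, 439 and 410 TPM in Vec 5 to Vec 7. All 4 Cr1l tumours were close together and below the Vec tumours, with a log2 fold change of -0.40 (SE 0.10, limma adjusted p = 0.213). Psmb7, the trypsin-like subunit, was at 311, 282, 227 and 206 TPM in Cr1l 1 to Cr1l 4, against 368, 345 and 357 TPM in Vec 5 to Vec 7. Here Cr1l 3 and Cr1l 4 were the lowest and the groups did not overlap, with a log2 fold change of -0.49 (SE 0.16, limma adjusted p = 0.251).

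**Figure D2:**
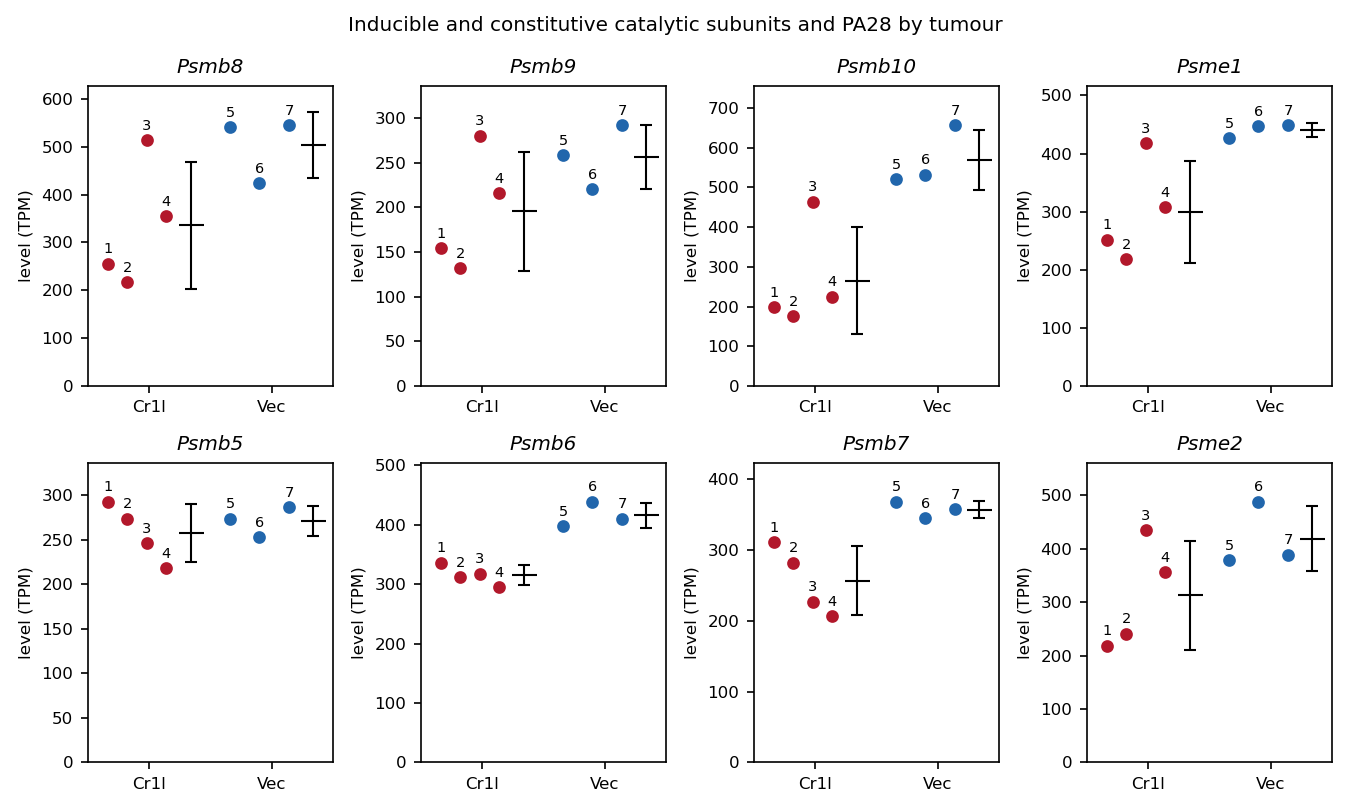
Level in TPM (vertical axis, from 0) of the inducible genes Psmb8, Psmb9, Psmb10, Psme1 and Psme2 and the constitutive Psmb5, Psmb6 and Psmb7, 1 point a tumour with its number, and the group mean ± SD beside the points. Cr1l 1 and Cr1l 2 are the lowest of 7 in the 5 inducible genes, with Psmb10 at 198 and 175 TPM, while Cr1l 4 is the lowest in Psmb5, Psmb6 and Psmb7.

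Within a tumour, the ratio of an inducible subunit to the one it replaces was not shown to differ between the groups. Psmb8 to Psmb5 was 0.87, 0.79, 2.09 and 1.63 in Cr1l 1 to Cr1l 4, against 1.97, 1.67 and 1.90 in Vec 5 to Vec 7. Psmb10 to Psmb7 was 0.64, 0.62, 2.04 and 1.09 in Cr1l 1 to Cr1l 4, against 1.42, 1.54 and 1.84 in Vec 5 to Vec 7. For both pairs Cr1l 1 and Cr1l 2 held less of the inducible than of the constitutive transcript, while each Vec tumour held more, and Cr1l 3 had the highest ratio of all. Psmb9 to Psmb6 was 0.46, 0.42, 0.88 and 0.73 in Cr1l 1 to Cr1l 4, against 0.65, 0.50 and 0.71 in Vec 5 to Vec 7, so Psmb6 was the higher in every tumour. The mean log2 ratio differed by -0.58 for Psmb8 to Psmb5 (two-sided exact permutation p = 0.343), by -0.71 for Psmb10 to Psmb7 (exact p = 0.286) and by -0.05 for Psmb9 to Psmb6 (exact p = 0.971). Without Cr1l 3 the differences were -0.83 for Psmb8 to Psmb5 and -1.07 for Psmb10 to Psmb7, and both exact p then took the lowest value possible for 3 tumours against 3, which is above 0.05. Over all 7 tumours and adjusted over the 3 ratios, the p 0.514, 0.514 and 0.971, and the smallest unadjusted p that the 35 splits of the tumours allow is 0.0286.

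**Figure D3:**
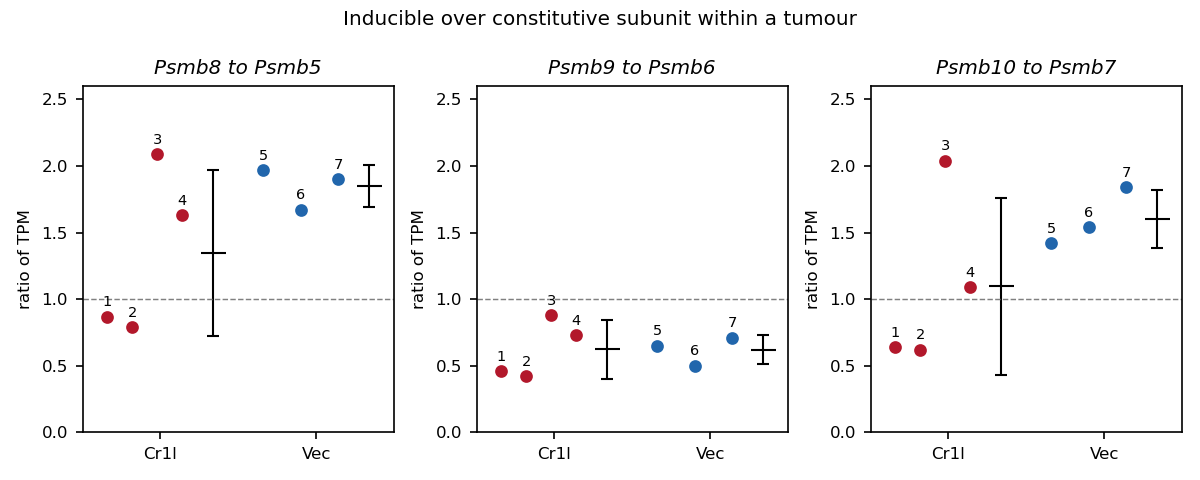
Ratio of TPM of each inducible catalytic subunit to the constitutive subunit it replaces (vertical axis, from 0), 1 point a tumour with its number, the group mean ± SD beside the points and a dashed line at 1. Cr1l 1 and Cr1l 2 lie at 0.87 and 0.79 for Psmb8 to Psmb5, below the other tumours, and Cr1l 3 lies at the top of each panel.

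The other core genes had lower values in Cr1l tumours too, with medians nearer 0 than the -0.60 (range -1.20 to -0.45) of the 5 inducible genes; that gap was not tested. The alpha ring gates the barrel, and its 7 genes had a median log2 fold change of -0.30 (range -0.46 to -0.15). Of these, 4 of 7 were lower at an unadjusted p under 0.05, against 6.07% of all genes. Psma5 was at 193, 197, 213 and 157 TPM in Cr1l 1 to Cr1l 4, against 273, 265 and 242 TPM in Vec 5 to Vec 7, a log2 fold change of -0.46 (SE 0.13, limma adjusted p = 0.227). The groups did not overlap for Psma5, nor for Psma2, Psma3 and Psma7, while Psma1, Psma4 and Psma6 had fold changes of -0.18, -0.15 and -0.17 and overlapped.

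The beta genes without a cutting site of their own had a median of -0.43. Of these, 3 of 4 were lower at an unadjusted p under 0.05 (background 6.07%). Psmb4 was at 443, 464, 433 and 362 TPM in Cr1l 1 to Cr1l 4, against 586, 581 and 566 TPM in Vec 5 to Vec 7 (log2 fold change -0.45, SE 0.12). The Vec tumours were nearly equal and well above the highest Cr1l tumour. Psmb3 was at 318, 300, 302 and 235 TPM in Cr1l 1 to Cr1l 4, against 434, 433 and 373 TPM in Vec 5 to Vec 7 (-0.52, SE 0.14). Psmb2 was at 173, 188, 200 and 157 TPM in Cr1l 1 to Cr1l 4, against 263, 215 and 243 TPM in Vec 5 to Vec 7 (-0.42, SE 0.13). All 3 had no overlap, and the authors' deposited table gave them adjusted p of 0.0245, 0.0317 and 0.0449. Psmb1 was the exception, with a fold change of -0.17 and overlapping groups.

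The 6 ATPases of the base, the motor that unfolds substrates, had a median log2 fold change of -0.48. Of these, 5 of 6 were lower at an unadjusted p under 0.05 (background 6.07%). Psmc4 was at 230, 229, 179 and 149 TPM in Cr1l 1 to Cr1l 4, against 291, 262 and 307 TPM in Vec 5 to Vec 7, a log2 fold change of -0.56 (SE 0.18, limma adjusted p = 0.241). Cr1l 3 and Cr1l 4 were the lowest, as they were for each of the 6 ATPases, and the groups overlapped only for Psmc6 (-0.23). Of the base subunits that are not ATPases, Psmd4, a receptor for ubiquitin chains, was at 231, 236, 197 and 186 TPM in Cr1l 1 to Cr1l 4, against 291, 288 and 284 TPM in Vec 5 to Vec 7. Psmd4 had little spread within Vec tumours and no overlap (log2 fold change -0.44, SE 0.12, limma adjusted p = 0.223), while the scaffold genes Psmd1 and Psmd2 had -0.32 and -0.18 and overlapped.

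The lid, which removes ubiquitin from the substrate, had a median log2 fold change of -0.38 over 8 genes. Of these, 4 of 8 were lower at an unadjusted p under 0.05 (background 6.07%). Psmd8 had the smallest p of the set, at 449, 450, 300 and 317 TPM in Cr1l 1 to Cr1l 4, against 575, 585 and 635 TPM in Vec 5 to Vec 7. All Cr1l tumours lay below all Vec tumours, Cr1l 3 and Cr1l 4 by the most, with a log2 fold change of -0.68 (SE 0.18, limma adjusted p = 0.212, and 0.0193 in the authors' deposited table). Without Cr1l 3 and Cr1l 4 the fold change of Psmd8 was -0.41. Psmd14, which carries the deubiquitinating site, had -0.35 (limma adjusted p = 0.377), and its partner Psmd7 had -0.57 (limma adjusted p = 0.251, and 0.0297 in the authors' deposited table); both overlapped.

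The 3 positive fold changes of the set were all in assembly factors, though other assembly factors had negative ones. The base chaperones Psmd10 and Psmd5 had 0.22 and 0.09, and the third, Psmd9, had -0.31, so the median was 0.09 and 0 of 3 had an unadjusted p under 0.05. Psmd10 was at 25.4, 28.7, 28.9 and 24.2 TPM in Cr1l 1 to Cr1l 4, against 22.2, 21.2 and 24.9 TPM in Vec 5 to Vec 7, and Cr1l 4 lay within the Vec values. Among the core chaperones Psmg1 had 0.09 and Psmg2 -0.07, while Psmg3 and Psmg4 had -0.28 and -0.39 (limma adjusted p = 0.312 and 0.301). Of these, 2 of 4 were lower at an unadjusted p under 0.05 (background 6.07%). Psmf1, an inhibitor that binds the core, was at 39.3, 36.4, 36.7 and 31.5 TPM in Cr1l 1 to Cr1l 4, against 49.4, 48.6 and 49.8 TPM in Vec 5 to Vec 7. The Vec tumours were almost identical and all above the Cr1l tumours (log2 fold change -0.45, SE 0.12, limma adjusted p = 0.222, and 0.0222 in the authors' deposited table). Psme3 and Psme4, single-gene activators found largely in the nucleus, had -0.11 and -0.09 and overlapped.

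The remaining 2 genes had means under 1 TPM and were not tested. Psma8, an alpha gene of germ cells, was at 0.68, 0.53 and 0.58 TPM in Cr1l 1, Cr1l 3 and Cr1l 4 and listed at 0 in Cr1l 2 and in every Vec tumour. Psmb11, the catalytic gene of the thymus, was listed at 0 in every Cr1l tumour and at 0.15 TPM in Vec 6 alone.

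The inducible genes and the rest of the set had their lowest values in different Cr1l tumours. Psmb8, Psmb9, Psmb10, Psme1 and Psme2 summed to 1079, 983, 2111 and 1460 TPM in Cr1l 1 to Cr1l 4, against 2124, 2111 and 2332 TPM in Vec 5 to Vec 7. Cr1l 1 and Cr1l 2 were lowest, and Cr1l 3 stood at the level of Vec 6. The 14 constitutive core genes summed to 3695, 3642, 3563 and 2951 TPM in Cr1l 1 to Cr1l 4, against 4548, 4389 and 4220 TPM in Vec 5 to Vec 7. The 17 genes of the regulatory particle summed to 3175, 3039, 2478 and 2272 TPM in Cr1l 1 to Cr1l 4, against 4028, 3369 and 3777 TPM in Vec 5 to Vec 7. For both sums the groups did not overlap and Cr1l 4 was the lowest, as it was for 32 of the 47 tested genes, against 19.9% of all genes tested. Cr1l 4 was the lowest for 12 of the 14 core genes, for 15 of the 17 regulatory genes and for 0 of the 5 inducible ones. As medians of the difference from the Vec mean in log2(TPM + 1), the core genes stood at -0.25, -0.33, -0.27 and -0.55 and the inducible ones at -0.92, -1.01, 0.04 and -0.49 in Cr1l 1 to Cr1l 4, so the core genes were low in all 4.

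The make-up of the tumours went with the level of the regulatory particle in some tumours and not in others. Cr1l 3 and Cr1l 4, its lowest tumours, had the lowest melanocyte sums (8872 and 10162 TPM), and Vec 6, its lowest Vec tumour, had the lowest of the Vec tumours (12899 TPM). The 7 fibroblast genes summed to 708, 1088, 5921 and 4738 TPM in Cr1l 1 to Cr1l 4, against 1142, 424 and 137 TPM in Vec 5 to Vec 7, with 7 of 7 fold changes positive, 3 at an unadjusted p under 0.05 (background 9.49%) and none listed at 0 in any tumour. Among the Vec tumours, Vec 5 had the highest fibroblast sum and also the highest sum of regulatory genes (4028 TPM). Cr1l 1 and Cr1l 2 had melanocyte sums within the Vec range. Their summed core and regulatory levels lay below those of every Vec tumour. The part of either cell type in the values of the core and regulatory genes was not tested.

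**Figure D4:**
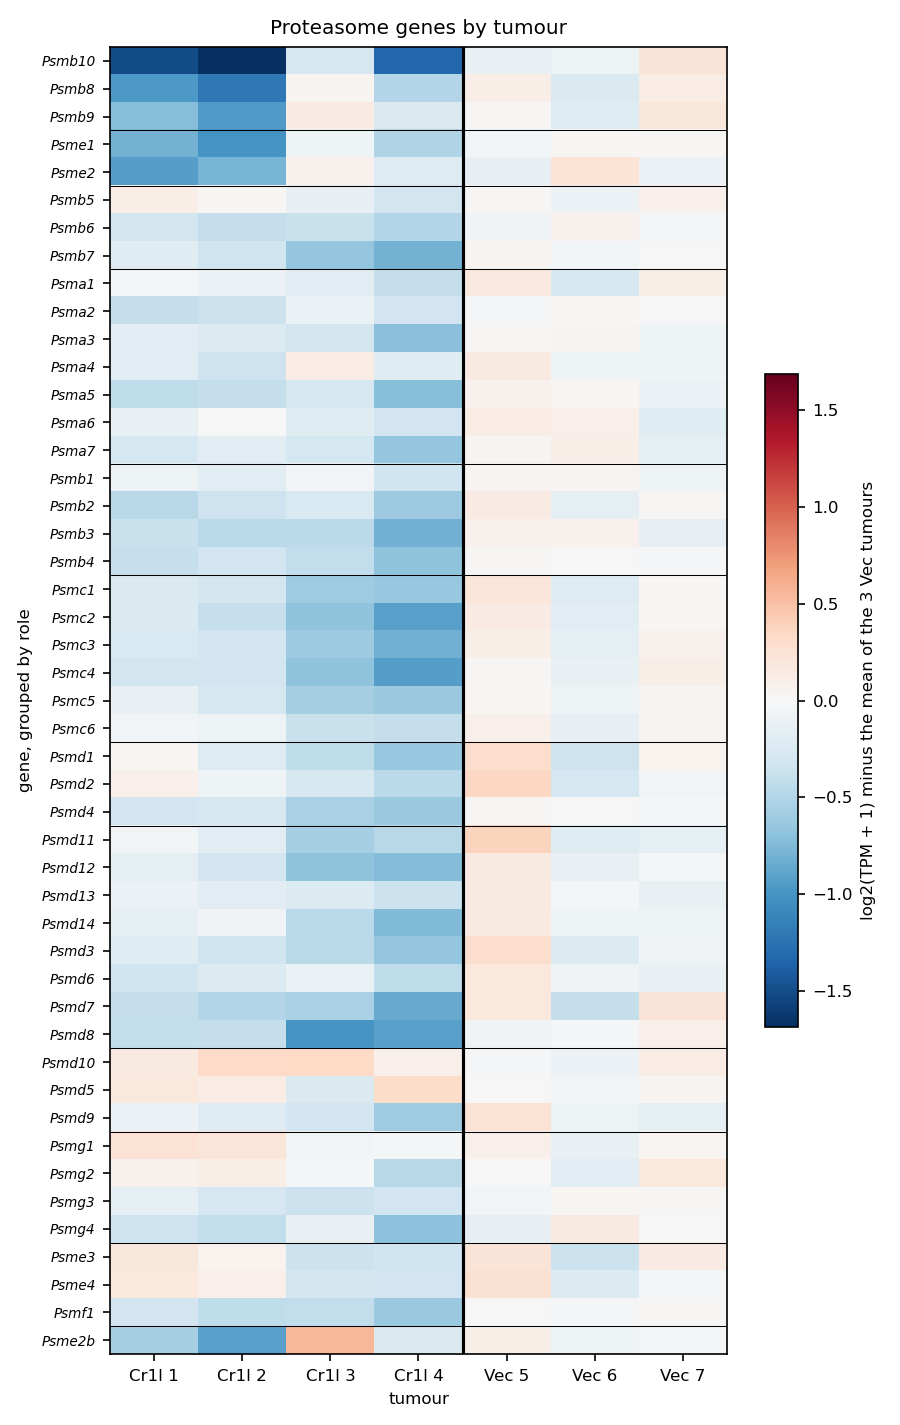
Each tested gene (rows, grouped by role) in each tumour (columns) as log2(TPM + 1) minus the mean of the 3 Vec tumours, blue for lower and red for higher. The top 5 rows are darkest in Cr1l 1 and Cr1l 2 (median -0.92 and -1.01), and most rows of the core and regulatory particle are darkest in Cr1l 4 (median -0.55 and -0.64).

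The spread within groups differed accordingly. The pooled within-group SD of log2(TPM + 1) had a median of 0.40 over the 5 inducible genes, 0.16 over the 14 core genes and 0.24 over the 17 regulatory genes, against 0.30 over all genes tested. Within Cr1l tumours the median SD was 0.49 for the inducible and 0.18 for the core genes, and within Vec tumours it was 0.20 and 0.09. Psmb6, a core gene, had a smaller fold change than Psmb8 (-0.40 and -0.66) and a smaller p.

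The leukocyte genes were high in Cr1l 3 and Cr1l 4, the Cr1l tumours with the higher inducible sums, and leukocytes are known to express immunoproteasome genes; how much of the inducible levels came from them was not tested. All 5 leukocyte genes had a positive fold change, with 0 of 5 at an unadjusted p under 0.05 and none listed at 0 in any tumour. The 10 macrophage and monocyte genes summed to 576, 987, 5725 and 4842 TPM in Cr1l 1 to Cr1l 4, against 1501, 810 and 495 TPM in Vec 5 to Vec 7. Vec 7 had the lowest leukocyte sum, 126 TPM, and the highest inducible sum, 2332 TPM. With the mean of the leukocyte genes as a covariate, chosen after seeing the data, the fold changes were -1.46 for Psmb10, -0.94 for Psmb8, -0.80 for Psme1, -0.73 for Psme2 and -0.68 for Psmb9. Their adjusted limma p were then 0.0657, 0.0843, 0.0737, 0.0890 and 0.143. Without Cr1l 3 and Cr1l 4, a setting also chosen after seeing the data, the values were -1.60, -1.08, -0.91, -0.85 and -0.84 in the same order. Their adjusted limma p were 0.102, 0.157, 0.102, 0.210 and 0.224. Cr1l 3 and Cr1l 4 were the higher Cr1l tumours for each of the 5 genes. Leaving them out therefore had to make these fold changes more negative, and nothing about leukocytes follows from it. The leukocyte sums were also highest in Cr1l 3 and Cr1l 4 (1491 and 946 TPM). The covariate fit therefore cannot separate leukocytes from anything else that set these tumours apart, and no conclusion about leukocytes is drawn from it either.

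**Figure D5:**
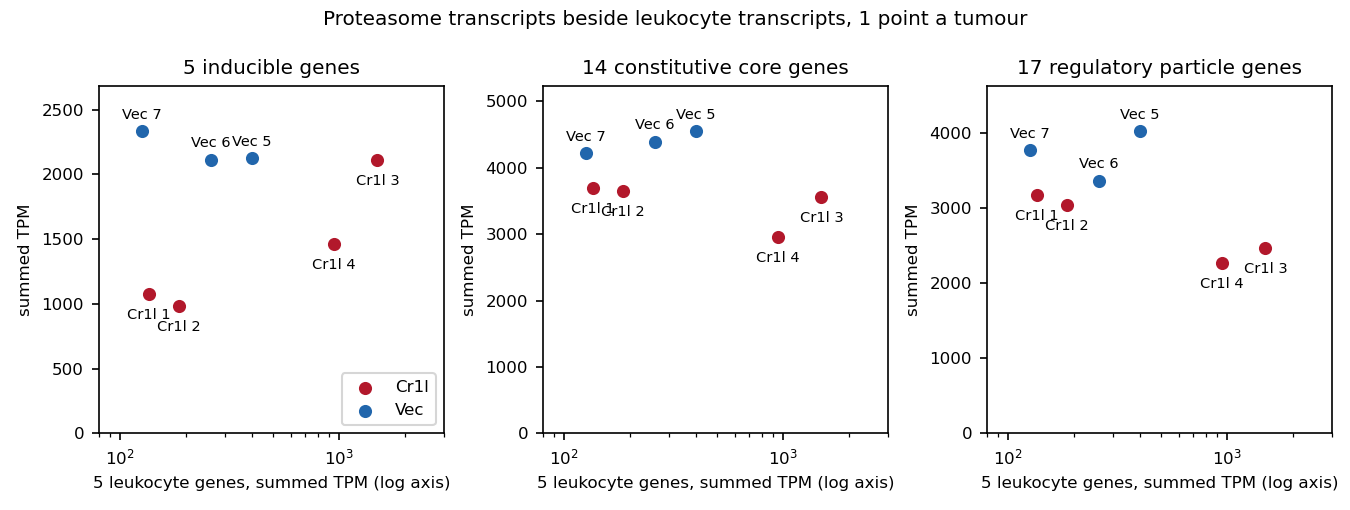
Summed TPM of the 5 inducible, 14 core and 17 regulatory particle genes (vertical axes, from 0) against the summed TPM of 5 leukocyte genes (log axis), 1 labelled point a tumour. Cr1l 1 and Vec 7 have leukocyte sums of 135 TPM in Cr1l 1 and 126 TPM in Vec 7, and inducible sums of 1079 TPM in Cr1l 1 and 2332 TPM in Vec 7.

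Mitochondrial transcripts had a higher share in Cr1l than in Vec tumours, opposite in direction to the set. They took 7.50%, 7.60%, 8.54% and 11.7% of TPM in Cr1l 1 to Cr1l 4, against 4.49%, 7.30% and 3.58% in Vec 5 to Vec 7. Cr1l 4, the lowest tumour for most proteasome genes, had the highest mitochondrial share. Within the Cr1l tumours the order was not mirrored throughout. Cr1l 3 had the next highest mitochondrial share and also the highest share of the proteasome genes (0.868%). With mitochondrial and globin transcripts taken out of the total, 21 genes of the set had an unadjusted p under 0.05 as lower (background 5.75%) and the median was -0.33.

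Proteins that build, regulate or work with the proteasome were a mixed group. Of 20 tested genes of this kind, 0 were higher and 3 lower at an unadjusted p under 0.05, Adrm1 and Ubb among them, against 9.49% and 6.07% of all genes, with a median of -0.16. Adrm1, another ubiquitin receptor of the base, was at 159, 160, 128 and 120 TPM in Cr1l 1 to Cr1l 4, against 278, 220 and 237 TPM in Vec 5 to Vec 7. The groups lay far apart, with a log2 fold change of -0.79 (SE 0.15, limma adjusted p = 0.124, and 9.32e-05 in the authors' deposited table). Ubb, a polyubiquitin gene named after its values were seen, had -0.45 with no overlap (limma adjusted p = 0.203, and 0.0216 in the authors' deposited table). Pomp, a chaperone of core assembly, had -0.36 (limma adjusted p = 0.351). Transcripts of Nfe2l1, the factor that raises proteasome genes when the proteasome is inhibited, were at 76.0, 67.5, 73.8 and 52.0 TPM in Cr1l 1 to Cr1l 4, against 71.8, 57.7 and 74.7 TPM in Vec 5 to Vec 7. The groups overlapped for Nfe2l1 and for its relative Nfe2l2, with fold changes of -0.02 and -0.06.

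The interferon gamma and antigen processing genes were called at about the rate of all genes. Of 28 tested genes, 2 were higher (Irf9 and Socs1) and 2 lower (Nlrc5 and B2m) at an unadjusted p under 0.05, against 9.49% and 6.07% of all genes, and the median was -0.01. Tap1, the neighbour of Psmb9, was at 122, 101, 247 and 145 TPM in Cr1l 1 to Cr1l 4, against 235, 195 and 201 TPM in Vec 5 to Vec 7. As for Psmb8, Psmb9 and Psme2, Cr1l 1 and Cr1l 2 were lowest and Cr1l 3 was as high as the Vec tumours (log2 fold change -0.53, limma adjusted p = 0.391). For Psmb10 and Psme1, Cr1l 3 lay below every Vec tumour. Tap2, the transporter partner of Tap1, had -0.37 (limma adjusted p = 0.548). Nlrc5, the activator of MHC class I genes, had -0.65 (limma adjusted p = 0.316), and B2m, the light chain of MHC class I, had -0.48 (limma adjusted p = 0.264) and was named after its values were seen.

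Among the signalling genes of the pathway, Ifng was at 1.41, 0.81, 6.48 and 2.40 TPM in Cr1l 1 to Cr1l 4, against 0.43, 1.19 and 0.07 TPM in Vec 5 to Vec 7, highest in Cr1l 3 and Cr1l 4 (log2 fold change 1.12, limma adjusted p = 0.343). Its fold change was 0.72 without Cr1l 3 and 0.48 without Cr1l 3 and Cr1l 4, and 2.16 with a pseudocount of 0.1. Irf1, a transcription factor induced by interferon gamma, had 0.55 with overlapping groups (limma adjusted p = 0.437), and 0.26 without Cr1l 3. Irf9, part of the interferon factor ISGF3, was at 49.2, 48.1, 58.7 and 48.5 TPM in Cr1l 1 to Cr1l 4, against 30.6, 33.0 and 36.5 TPM in Vec 5 to Vec 7. Every Cr1l tumour was above every Vec tumour (log2 fold change 0.60, SE 0.13, limma adjusted p = 0.159), opposite in sign to the inducible subunits. Socs1, an inhibitor of the same pathway, was at 4.39, 4.16, 16.4 and 6.20 TPM in Cr1l 1 to Cr1l 4, against 2.29, 1.63 and 1.86 TPM in Vec 5 to Vec 7 (log2 fold change 1.40, SE 0.43, limma adjusted p = 0.238).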

How the data were processed

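Poly-A RNA of 7 tumours was sequenced from libraries that do not keep strand, per the labels' protocols, so a gene and its antisense partner cannot be told apart. The submitters' processing notes name RSEM, DESeq2 and the mm39 build. No source used here gives the aligner, annotation, versions or depth, so counting error is unknown. The authors deposited log2(TPM + 1) values per gene and tumour. With the logarithm undone, 99.89% of values were whole hundredths of a TPM, within 1e-06 of a hundredth. The authors' deposited DESeq2 table holds, per the file headers, the mean normalized count over tumours (a signal), the log2 fold change with its error, a test statistic (a score, not used here), and the p-value before and after adjustment. Its numerator, unnamed, was taken to be Cr1l because Cr1l itself has a positive value there (0.57), and 27182 of 28369 Ensembl identifiers matched a symbol.

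Tests covered genes that averaged 1 TPM or more, on log2(TPM + 1), a pseudocount of 1 that understates changes of low genes, with limma 3.58.1 in R 4.3.3, using moderated variances with a trend and Benjamini-Hochberg adjustment over all 14954 genes, two-sided. Replicates are separately numbered tumours, and p-values measure only the spread between them. Ratios had exact permutation tests. Promoters came from the RefSeq table (GRCm38.p6), whose build differs from that of the files. Full values were given for the 3 inducible and 3 constitutive catalytic genes, Psme1, Psme2, the 8 further genes with the smallest p, genes under 1 TPM and chosen pathway genes, some of which are not reported here. The members and lists were chosen with earlier results of these data known. The alternatives were other pseudocounts, filters, scalings, weights and variance models, and leaving out tumours. Figures used matplotlib 3.10.9 in Python 3.11.15.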

Additional observations from a re-analysis of the deposited data

Results flagged for a closer look

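Of 27 groups of 4 Cr1l values examined, 2 held a tumour that stood far from the others, by a gap to its nearest neighbour, relative to the whole range, above Dixon's critical value; chance flags about 1 in 20 groups. Nfe2l2 in Cr1l 3 was the lowest, at 82.8 TPM, against 92.4, 91.7 and 93.2 TPM in Cr1l 1, Cr1l 2 and Cr1l 4, with a gap of 0.857 of the range. Irf9 in Cr1l 3 was the highest, at 58.7 TPM, against 49.2, 48.1 and 48.5 TPM in Cr1l 1, Cr1l 2 and Cr1l 4, with a gap of 0.886 of the range.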

How the results depend on the processing

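No paired analysis was possible because the groups share no tumour numbers (1 to 4 against 5 to 7). No gene of the set passed the adjusted threshold under the 17 alternatives, and 14 of 692 recomputed log2 differences took the opposite sign, 2 of them the median of the other activators and inhibitor (0.13 without Cr1l 3 and Cr1l 4, 0.03 with the leukocyte covariate). Genes lower at an unadjusted p under 0.05 numbered 12 to 23 with 1 tumour left out (background 4.04% to 6.49%). Scaled by the median ratio of each tumour to the geometric mean of each gene, 31 were lower at that p (background 9.46%). In that fit 27 were lower with no overlap (background 9.97%). With no variance trend 17 were lower at that p (background 5.76%). Without a filter on low values 1 was higher (background 6.20%). Without Vec 6 and Vec 7, 38 genes were lower and 1 higher with no overlap (background 26.4% lower), and the medians were -0.62 for the lid and -0.35 for the other activators and inhibitor. Without Cr1l 3 and Cr1l 4 (added after seeing the data) 3 were higher and 29 lower with no overlap (background 12.7% lower). The medians were then -0.88 for PA28 and 0.13 for the other activators and inhibitor. The log2 ratios were -0.83 to -0.36 (Psmb8 to Psmb5) and -1.07 to -0.50 (Psmb10 to Psmb7) with 1 tumour left out, and -1.15 and -1.34 without Cr1l 3 and Cr1l 4. Genes higher with no overlap numbered 1 without mitochondrial and globin transcripts and 0 to 1 with 1 tumour left out, where the base chaperone median was 0.02 to 0.19. The log2 ratio of Psmb9 to Psmb6 was -0.24 to 0.12 with 1 tumour left out. Signs turned for Psmb5 (0.06 without Cr1l 3 and Cr1l 4, 0.02 with the leukocyte covariate), Nfe2l1 (0.01 without mitochondrial and globin transcripts, 0.08 and 0.04 under those 2 added settings, -0.14 to 0.10 with 1 tumour left out) and Nfe2l2 (0.06 without Vec 6 and Vec 7). For all of these the cause was not tested.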
